A study of Mus musculus with 6 samples.

Results

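The 10 genes described here encode parts of the autophagy machinery and of its mitochondrial branch, mitophagy. They were taken by name from the table of gene counts (Sqstm1, Map1lc3a, Map1lc3b, Gabarapl1, Ulk1, Becn1, Wipi1, Bnip3l, Pink1 and Tfeb), and all 10 were found among its 34745 genes. The counts come from bulk RNA-Seq of livers of WT mice given saline or an overdose of APAP (acetaminophen, 300 mg/kg, 12 hours). The Methods describe male C57BL/6J mice of 8 to 10 weeks that were fasted for 12 hours before the injection, and all mice carry the same WT genotype. Of 6 samples in 2 groups, 5 libraries were analysed, namely APAP replicates 1 and 3 and the saline libraries WT1 to WT3. APAP replicate 2 was not analysed here. The columns headed WT were taken to be saline, since every other column carries the name of the drug, and none of them can be tied to a numbered saline sample.

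Autophagy encloses cell contents in a double membrane, the autophagosome, and delivers them to the lysosome. The ULK1 kinase starts the process, a lipid kinase complex that contains Beclin 1 marks the new membrane, and WIPI proteins read that mark. Proteins of the LC3 and GABARAP families are then attached to the membrane, where receptors such as p62 (the product of Sqstm1) dock with their cargo. Damaged mitochondria enter by way of the PINK1 kinase or of receptors such as BNIP3L, and TFEB switches on many autophagy and lysosome genes. APAP is converted in hepatocytes to a reactive metabolite that injures mitochondria, and autophagy of damaged mitochondria and of protein adducts has long been studied in this injury.

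Libraries held between 13378445 and 15976339 counts, and 3 counts, taken as the limit of detection, corresponded to between 0.176 and 0.269 CPM. The libraries of the 2 groups also differed in sex-linked RNA. Xist was between 289.6 and 914 CPM in the saline libraries and at most 1.73 CPM in the APAP libraries, while 4 Y-linked genes summed to between 126 and 171 CPM in the APAP libraries and to at most 0.134 CPM in the saline libraries. The saline libraries therefore do not match the male sex given in the Methods, whereas the APAP libraries do. Treatment and sex-linked expression cannot be told apart in any difference given here. Nothing in the labels says which libraries came from separate animals, so the p-values measure the spread between these libraries. Counts of liver RNA do not separate a loss of cells of a type from less RNA per cell.

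Of the 10 genes, Sqstm1 rose in the APAP livers and the other 9 did not pass an adjusted p of 0.05 in edgeR's quasi-likelihood test. Among all 13734 genes tested, 7.23% passed, 3.70% higher and 3.53% lower with APAP. All 10 were abundant enough to be tested, 4 had a positive and 6 a negative log2 fold change, and their median was −0.19, against 0.03 for all genes tested. Without APAP replicate 1 or without WT3 the median of the 10 was −0.023 or −0.021, with 5 positive and 5 negative values in each case. By the thresholds that the study names (fold change of at least 1.5, unadjusted P under 0.05), 3 of the 10 passed, with Sqstm1 higher and Gabarapl1 and Pink1 lower, where 23.5% of all genes did. The direction of several small differences depended on scaling. Scaling to library size only moved the median of all genes to 0.42, and 8 of the 10 genes then had a positive value. The 3 genes past the study's thresholds were then 2 higher and 1 lower, where all genes past them went from 1696 higher and 1532 lower to 3338 higher and 731 lower.

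**Figure D1:**
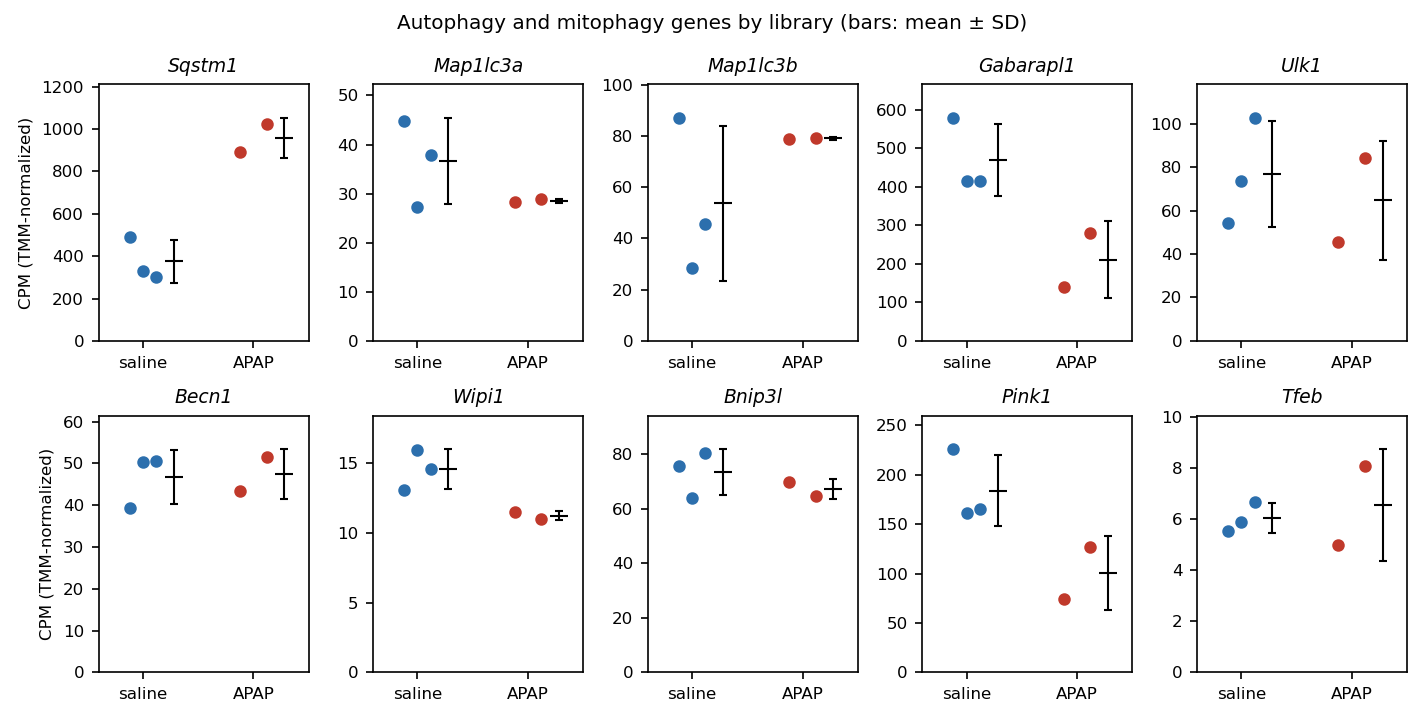
TMM-normalized CPM (y axes, each from 0) of the 10 genes in the 3 saline (blue) and 2 APAP (red) libraries, 1 point per library, with the mean and SD of each group as a black bar. Both APAP points of Sqstm1 lie above all saline points, those of Gabarapl1, Pink1 and Wipi1 lie below them, and the groups of the other 6 genes overlap.

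Sqstm1 encodes p62, a receptor that binds ubiquitinated cargo and LC3 and that also holds KEAP1, the inhibitor of the antioxidant factor NRF2. The gene (ENSMUSG00000015837) spans bases 50199366 to 50210827 of chromosome 11 (GRCm38, the build of all gene positions given here, minus strand). APAP replicates 1 and 3 held 891 and 1025 CPM of its RNA, whereas WT1, WT2 and WT3 held 492, 331 and 302 CPM. The lowest APAP value was thus well above the highest saline value, and WT1 was the highest of the saline libraries. The means were 958 ± 94.2 CPM (SD, n = 2) with APAP and 375 ± 102 CPM (SD, n = 3) with saline, a 2.55-fold difference. The log2 fold change of 1.35 (standard error 0.30, 95% interval 0.64 to 2.06) gave an adjusted p of 0.0443 in edgeR's quasi-likelihood test (Benjamini-Hochberg), close to the threshold. By that test the adjusted p was 0.0390 without WT1, 0.179 without WT2 and 0.0883 without WT3. Without APAP replicate 1 or 3 only 1 APAP library was left, and the log2 fold change was 1.45 or 1.24. With any 1 library left out it stayed between 1.22 and 1.61. With size factors in place of TMM the adjusted p was 0.0564. Sqstm1 took between 58.2% and 64.2% of the reads of the 10 genes in the APAP libraries and between 24.7% and 30.5% in the saline libraries.

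The 250 bases before the start of Sqstm1 are shown beside those of Gabarapl1, the gene of the 10 with the most negative value, so that the promoters of the extremes can be compared. The sequences are from RefSeq (GRCm38.p6), written 5′ to 3′ on the strand of the gene, at chr11:50210821-50211070 (minus strand) for Sqstm1 and chr6:129532942-129533191 (plus strand) for Gabarapl1. Capitals mark the GC box GGGCGG or its reverse complement.
Sqstm1: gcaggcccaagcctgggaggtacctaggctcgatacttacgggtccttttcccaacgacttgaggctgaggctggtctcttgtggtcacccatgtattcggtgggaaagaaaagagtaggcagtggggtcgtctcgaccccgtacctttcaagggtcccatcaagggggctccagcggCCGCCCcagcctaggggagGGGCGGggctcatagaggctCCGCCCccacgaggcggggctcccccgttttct
Gabarapl1: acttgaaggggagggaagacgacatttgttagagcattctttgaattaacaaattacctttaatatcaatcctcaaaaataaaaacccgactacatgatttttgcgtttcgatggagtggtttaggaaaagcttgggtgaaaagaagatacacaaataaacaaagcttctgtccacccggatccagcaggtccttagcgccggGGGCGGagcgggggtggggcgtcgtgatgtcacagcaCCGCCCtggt

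Promoter windows of 300 bases (250 before to 50 after a start) were at hand for 7 of the 10 genes, 9 windows in all, since Tfeb has 3. Both strands were searched for 9 motifs. A GC box stood in 9 of the 9 windows, against 35.7% of all 32851 promoter windows. The E-box core CACGTG, which TFEB binds, was in 0 of the 9 windows (7.15% of all), as were the AP-1 site TGANTCA (7.81%), the heat-shock element pair GAANNTTC (7.86%), the ATF4 element TGATGNAA (3.97%), the FOXO site TGTTTAC (3.65%) and CCAAT (37.4%). The TATA box TATAAA stood only in the window of Sqstm1, where it spans the start, against 13.6% of all windows. The antioxidant response element core TGACNNNGC, the NRF2 site, was found in 1 of the 9 windows, that of Map1lc3b (12.4% of all), where it lies from base 5 to base 13 after the start. Its first 6 letters, TGACTC, also match the start of the AP-1 motif. The match is in capitals in the following 29 bases from chr8:121590432-121590460 (plus strand).
Map1lc3b: gcgagtcaccTGACTCGGCtgcggactga
These matches describe the letters of a short window and say nothing about which factor acts on a gene.

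Among the genes of the LC3 and GABARAP families, which become anchored in the autophagosome membrane, Gabarapl1 had the most negative difference between APAP and saline livers. Gabarapl1 (ENSMUSG00000030161, chromosome 6, 129533160 to 129542346) was at 141 and 281 CPM after APAP, and 578, 415 and 416 CPM after saline. Both APAP libraries were below all saline libraries, and APAP replicate 3 was about as far from APAP replicate 1 as from the lower saline libraries. The mean with APAP (211 ± 99.0 CPM, SD, n = 2) was 44.9% of that with saline (470 ± 94.1 CPM, SD, n = 3). Its log2 fold change of −1.15 (standard error 0.37, 95% interval −2.03 to −0.28) passed the study's thresholds but had an adjusted p of 0.112 by edgeR's quasi-likelihood test. DESeq2 gave −1.19 with an adjusted p of 0.0161. The value moved from −0.74 without APAP replicate 1 to −1.75 without APAP replicate 3.

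Map1lc3b, the gene of the LC3 form most used as a marker of autophagosomes, was at 78.7 and 79.3 CPM in the APAP livers against 87.0, 28.3 and 45.7 CPM in the saline livers. The APAP libraries were nearly equal, whereas the saline libraries spanned a 3-fold range around them, with WT1 above both. The log2 fold change of 0.56 (standard error 0.43, 95% interval −0.47 to 1.59, adjusted p = 0.478 by edgeR's quasi-likelihood test) did not pass, and it was 1.11 without WT1 and 0.25 without WT2. The gene (ENSMUSG00000031812) lies on chromosome 8 from 121590361 to 121598760. Map1lc3a, its close relative (ENSMUSG00000027602, chromosome 2, 155276297 to 155278073), was at 28.3 and 28.8 CPM after APAP, and 44.7, 27.3 and 37.9 CPM after saline. The groups overlapped, since WT2 lay below both APAP libraries, and the difference was −0.36 on the log2 scale (standard error 0.25, adjusted p = 0.433), or 0.06 with scaling to library size only.

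The remaining genes of the family were read from a wider list. Gabarap was at 116 and 181 CPM in the APAP livers against 267, 183 and 195 CPM in the saline livers (log2 fold change −0.54, standard error 0.30, adjusted p = 0.326). Gabarapl2 was at 41.2 and 50.3 CPM after APAP, and 46.9, 39.5 and 51.8 CPM after saline, and the sign of its log2 fold change, −0.01 (standard error 0.21), turned under 6 alternatives.

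**Figure D2:**
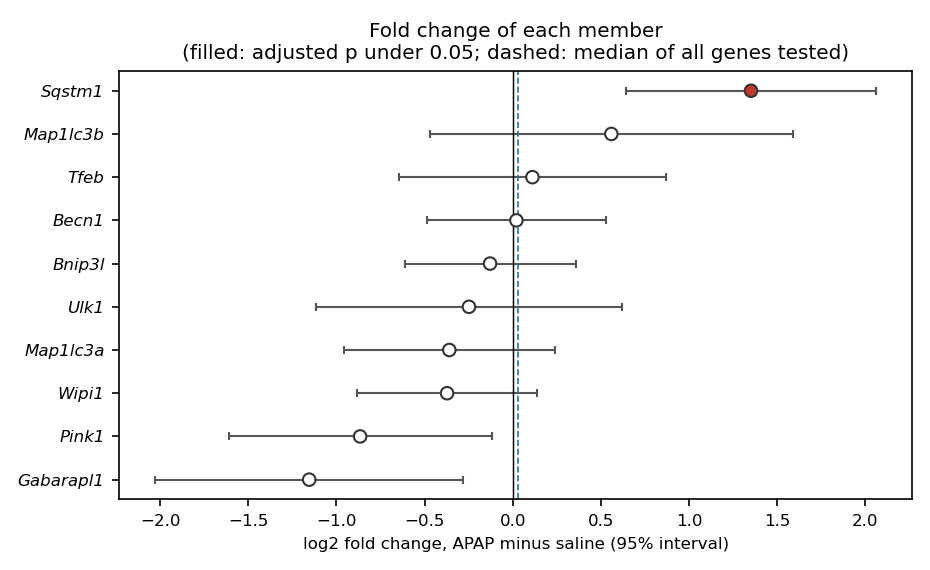
Log2 fold change (x axis, APAP minus saline) of each of the 10 genes from edgeR's quasi-likelihood test, with its 95% interval. The filled point, Sqstm1 at 1.35, is the only one with an adjusted p under 0.05, and the intervals of Gabarapl1 (−1.15) and Pink1 (−0.87) also lie to one side of 0, while the dashed line is the median of all genes tested, 0.03.

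Ratios of raw counts between genes of 1 library do not depend on how libraries are scaled. The pairs were chosen with the values known, so the ratios are given as a description. Sqstm1 had 6.33 and 3.65 times the counts of Gabarapl1 in the APAP libraries and 0.852, 0.799 and 0.727 times in the saline libraries. Sqstm1 was thus above Gabarapl1 in both APAP libraries and below it in all saline libraries. The ratio of Map1lc3b to Map1lc3a was 2.79 and 2.75 with APAP, and 1.95, 1.04 and 1.21 with saline. That of Gabarapl1 to Map1lc3b was 1.79 and 3.54 with APAP, and 6.64, 14.7 and 9.10 with saline. None of these ratios overlapped between the groups, and with 2 against 3 libraries an exact permutation test (two-sided) cannot give a p below 0.2.

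**Figure D3:**
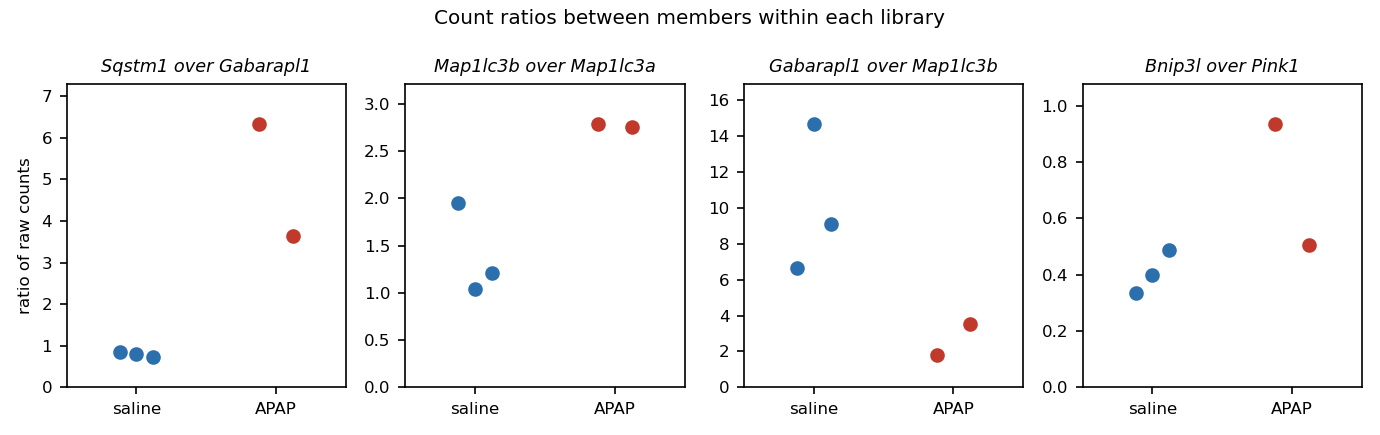
Ratios of raw counts (y axes, each from 0) between pairs of the 10 genes in the 3 saline (blue) and 2 APAP (red) libraries, 1 point per library. The ratio of Sqstm1 to Gabarapl1 is between 0.727 and 0.852 in the saline libraries and at 3.65 and 6.33 in the APAP libraries, and in the Bnip3l to Pink1 panel the lower APAP point (0.507) lies just above the highest saline point (0.488).

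Of the mitophagy genes, Pink1 encodes the kinase that builds up on damaged mitochondria and recruits the ubiquitin ligase Parkin. Pink1 (ENSMUSG00000028756, chromosome 4, 138313409 to 138326307, minus strand) was at 74.5 and 127 CPM in the APAP livers against 225, 161 and 165 CPM in the saline livers. Both APAP libraries lay below all saline libraries, with APAP replicate 1 the lower, as for Gabarapl1. The mean with APAP (101 ± 37.3 CPM, SD, n = 2) was 54.9% of the saline mean (184 ± 36.1 CPM, SD, n = 3). The log2 fold change of −0.87 (standard error 0.31, 95% interval −1.61 to −0.12) passed the study's thresholds but not the adjustment (adjusted p = 0.149 by edgeR's quasi-likelihood test, 0.0613 by DESeq2), and leaving out APAP replicate 1 or 3 gave −0.53 or −1.31. A miRNA gene annotated inside it shares 2.62% of the 50-base stretches of the Pink1 transcript.

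Bnip3l, also known as Nix, encodes a receptor in the outer mitochondrial membrane that binds LC3 proteins directly. It lies on chromosome 14 from 66985239 to 67008877 (ENSMUSG00000022051) and was at 69.7 and 64.5 CPM after APAP, and 75.6, 64.1 and 80.4 CPM after saline. The groups overlapped and the difference on the log2 scale was −0.13 (standard error 0.20, 95% interval −0.61 to 0.36, adjusted p = 0.746). Its counts are uncertain, because 23.4% of its 50-base stretches are also in the pseudogene Bnip3l-ps, which was counted separately at 28.2 and 28.6 CPM in the APAP livers against 24.0, 20.5 and 26.3 CPM in the saline livers. With the counts of both added, the log2 fold change was −0.02. The related receptor gene Bnip3, on chromosome 7, was at 106 and 116 CPM after APAP, and 217, 172 and 317 CPM after saline. The APAP libraries were below all saline libraries, and the difference was −1.08 on the log2 scale with a standard error of 0.31 (adjusted p = 0.0879). The ratio of Bnip3l to Pink1 counts was 0.935 and 0.507 with APAP, and 0.335, 0.398 and 0.488 with saline.

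Levels of cell type markers differed alongside these genes. The summed level of 6 hepatocyte markers, Alb among them, was 62046 and 107036 CPM in the APAP libraries and between 112616 and 152372 CPM in the saline libraries, again with APAP replicate 1 the lowest. Alb alone made up 51545 and 89798 CPM of these sums with APAP, and between 95101 and 129117 CPM with saline. Of the 6 markers, 5 had a negative log2 fold change (median −1.06) and Apoa1 a positive one (0.57). None of the 6 had an adjusted p under 0.05 and none was at 0. Their part in the values of Gabarapl1 and Pink1 was not tested. The summed level of 8 neutrophil markers was 121 and 78.6 CPM with APAP and between 5.65 and 8.89 CPM with saline. Of the 8, 6 were higher at an adjusted p under 0.05, where 3.70% of all genes tested were. The 6 monocyte and macrophage markers summed to 94.95 and 159 CPM with APAP and to between 75.2 and 110 CPM with saline, with 2 of the 6 higher at that threshold. The part of these cells in the rise of Sqstm1 was not tested. Sums of 6 Kupffer cell markers (233 and 413 CPM against 227 to 336 CPM), of 6 endothelial markers (102 and 167 CPM against 111 to 172 CPM) and of 6 stellate cell markers (288 and 352 CPM against 329 to 376 CPM, with 1 of the 6 higher) overlapped between the groups.

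Ulk1 and Becn1, which act at the start of autophagosome formation, differed by less than the spread between libraries. Ulk1, the initiating kinase (ENSMUSG00000029512, chromosome 5, 110784488 to 110810097), stood at 45.4 and 84.2 CPM in the APAP livers against 54.2, 73.8 and 103 CPM in the saline livers. The 2 groups covered nearly the same range, and the log2 fold change of −0.25 (standard error 0.37, 95% interval −1.12 to 0.62) turned to 0.13 without APAP replicate 1 and to 0.09 with scaling to library size only. Becn1, the gene of Beclin 1 (ENSMUSG00000035086, chromosome 11, 101285952 to 101302286), was at 43.3 and 51.6 CPM after APAP, and 39.3, 50.3 and 50.6 CPM after saline. Its log2 fold change of 0.02 (standard error 0.21, 95% interval −0.49 to 0.53) was the closest to 0 of the 10.

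Wipi1, which binds the lipid mark of the growing membrane (ENSMUSG00000041895, chromosome 11, 109573331 to 109611967), stood at 11.5 and 11.0 CPM in the APAP livers against 13.1, 15.9 and 14.6 CPM in the saline livers. The APAP libraries were below the saline libraries by a small margin (log2 fold change −0.37, standard error 0.22, adjusted p = 0.339 by edgeR's quasi-likelihood test, or 0.01 on the log2 scale with scaling to library size only). Tfeb, the transcription factor (ENSMUSG00000023990, chromosome 17, 47737030 to 47792419), was at 4.99 and 8.10 CPM with APAP, which enclosed the saline values of 5.56, 5.91 and 6.68 CPM. Its log2 fold change was 0.11 (standard error 0.32, 95% interval −0.64 to 0.87), and −0.29 without APAP replicate 3. Its relative Tfe3, an X-linked gene, was at 28.0 and 39.1 CPM after APAP, and 34.1, 26.0 and 28.4 CPM after saline, and its log2 fold change was 0.19 (standard error 0.24).

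In all, the groups did not overlap in 1 gene with higher APAP values (Sqstm1) and 3 with lower values (Gabarapl1, Pink1 and Wipi1), where 24.0% of all genes tested were separated upward and 20.1% downward. Exons of 3 of the 10 genes overlap a gene on the other strand over more than 10% of their length, and the strand setting of the counting is not given in the sources used here. These neighbors had few counts of their own over the 5 libraries (Mrnip beside Sqstm1 204, 1700101I11Rik beside Gabarapl1 21 and Cntd1 beside Becn1 3).

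Levels of different genes were compared as CPM per kilobase of the longest protein-coding transcript. In the saline livers Gabarapl1 (258 ± 51.7 CPM per kilobase, SD, n = 3) stood first, followed by Sqstm1 (140 ± 38.3), Pink1 (77.4 ± 15.2), Map1lc3a (32.9 ± 7.89), Bnip3l (22.5 ± 2.57), Map1lc3b (20.4 ± 11.5), Ulk1 (14.8 ± 4.68), Becn1 (10.7 ± 1.47), Wipi1 (4.35 ± 0.428) and Tfeb (2.58 ± 0.245). From Map1lc3a down to Becn1 the saline values of each gene overlapped those of the next in this order, while the other neighbours did not overlap. In the APAP livers Sqstm1 (358 ± 35.2 CPM per kilobase, SD, n = 2) stood before Gabarapl1 (116 ± 54.4) and Pink1 (42.5 ± 15.7), while Ulk1, Becn1, Wipi1 and Tfeb kept the last 4 places in the same order. With the length of all merged exons, which is 7517 bases for Map1lc3b against 2633 bases for its transcript, Map1lc3b moved from place 6 to place 7 in the saline livers.

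The other genes of the pathway were read from a list of 89 genes in 9 steps, all of which were tested. With APAP 2 of the 89 (2.25%) were lower and 0 were higher at an adjusted p under 0.05 by edgeR's quasi-likelihood test, against 7.23% of all genes, while DESeq2 called 14, of which 3 were higher. By the study's thresholds 17 passed, 3 higher and 14 lower (19.1%, against 23.5% of all genes). Of the 89 genes 64 had a negative and 25 a positive log2 fold change, with a median of −0.30. Of all genes tested, 6589 were negative and 7145 positive. But with scaling to library size only, 34 of the 89 were negative and 55 positive, and of the 15 past the study's thresholds 11 were higher and 4 lower. The median of the list minus that of all genes was −0.33 under either scaling, but −0.15 without APAP replicate 1 and −0.22 without WT3.

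**Figure D4:**
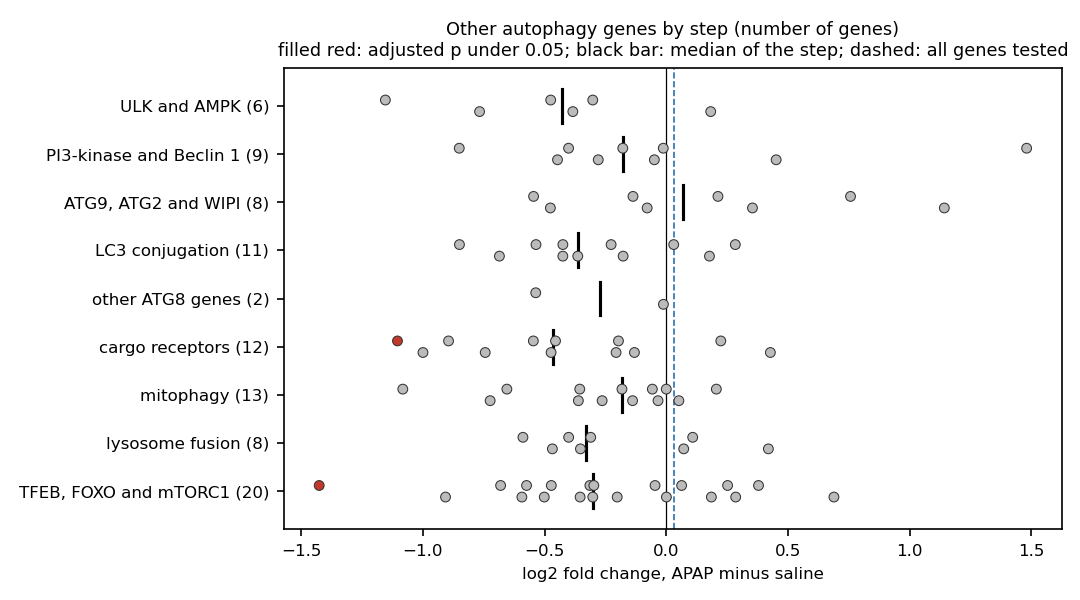
Log2 fold change (x axis, APAP minus saline) of 89 other autophagy genes, 1 point per gene, arranged by step of the pathway, with the median of each step as a black bar and the median of all genes tested, 0.03, as a dashed line. The red points, Ccpg1 at −1.10 and Deptor at −1.43, have an adjusted p under 0.05.

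Deptor, which encodes an inhibitor bound to the mTOR kinase, was the gene with the most negative value on the list. It was at 64.5 and 71.2 CPM in the APAP livers against 199, 198 and 150 CPM in the saline livers, so that it fell by 1.43 on the log2 scale (standard error 0.24, edgeR quasi-likelihood test, adjusted p = 0.0218). Ccpg1, a receptor for autophagy of the endoplasmic reticulum, was at 11.4 and 14.96 CPM after APAP, and 25.8, 27.6 and 31.6 CPM after saline, or −1.10 on the log2 scale with a standard error of 0.23 (adjusted p = 0.0366). Both genes had all APAP values below all saline values, as did 20.1% of all genes tested. Without WT1, WT2 or WT3 the adjusted p by that test was 0.0481, 0.0941 or 0.0214 for Deptor. For Ccpg1 it was 0.0594, 0.129 or 0.0648, and 0.114 with scaling to library size only. Without APAP replicate 1 or 3 only 1 APAP library was left. The log2 fold change was then −1.35 or −1.51 for Deptor and −0.92 or −1.32 for Ccpg1.

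The remaining steps had no gene under an adjusted p of 0.05 by that test, and each is given by its gene with the lowest p. Among initiation genes it was Ulk2, a paralog of Ulk1, at 23.0 and 41.7 CPM in the APAP livers against 77.8, 72.5 and 65.7 CPM in the saline livers (log2 fold change −1.15, standard error 0.29, adjusted p = 0.0628). Among the genes of the Beclin 1 complex it was Bcl2l1, whose product BCL-XL binds Beclin 1 and blocks apoptosis, at 80.0 and 46.4 CPM after APAP, and 19.5, 14.7 and 33.7 CPM after saline (1.48, standard error 0.39, adjusted p = 0.0718). Among genes of membrane supply it was the lipid transfer gene Atg2a, at 86.9 and 127 CPM in the APAP livers against 46.9, 38.4 and 60.3 CPM in the saline livers (1.14, standard error 0.28, adjusted p = 0.0554). The groups did not overlap in these 3 genes, as in 37.1% of the 89 listed genes and 44.1% of all genes tested. Among the genes of LC3 conjugation it was Atg3, the enzyme that passes LC3 to lipid, at 52.5 and 68.6 CPM after APAP, and 120, 102 and 106 CPM after saline (−0.85, standard error 0.23, adjusted p = 0.0722). Among fusion genes it was Rab7, a GTPase of late endosomes, at 97.6 and 82.0 CPM in the APAP livers against 155, 112 and 138 CPM in the saline livers (−0.59, standard error 0.24, adjusted p = 0.187). In Atg3 and Rab7 too, both APAP libraries were below all saline libraries.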

How the data were processed

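RNA was extracted from mouse livers with TRIzol, and the libraries were sequenced on an Illumina NovaSeq platform. The authors deposited raw read counts per gene and library, obtained after HISAT2 alignment, with GRCm38 (mm10) as the build per the labels. Annotation, strand setting and program versions are not given in the sources used here. The 5 columns of FPKM were not used, since the counts are the unit the tests need and levels per length were computed from them. The floor of 3 counts covers counting error only.

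The counts went into edgeR 4.0.16 (R 4.3.3). The filterByExpr function (minimum count 10, minimum total 15) chose the genes, which were scaled by TMM and tested by the quasi-likelihood test with Benjamini-Hochberg adjustment over all 13734 genes. The paper names edgeR but neither the test nor an adjustment. CPM use the normalized library sizes. Alternatives were the likelihood ratio test, DESeq2 1.42.0, 3 other scalings, 2 other filters and each library left out. No pair of libraries in a group agreed within sampling noise (chi-square 43.2 to 92.2 for each degree of freedom). Loci of the 10 genes were identical in GENCODE M21, which gave transcripts, exons and the 50-base stretches that genes share. Promoters are from RefSeq. Plots used Python 3.11.15 and matplotlib.

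The 10 genes and all lists were chosen with earlier results of these data known. Genes named from the wider list were those with an adjusted p under 0.05, the gene of lowest p in each other step, and Gabarap, Gabarapl2, Bnip3 and Tfe3 as relatives. The motifs, the count ratios and the sum with Bnip3l-ps were chosen after the values were seen.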

Additional observations from a re-analysis of the deposited data

How the results depend on the processing

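No paired analysis was possible because the saline columns carry no replicate number of the labels. Neither the labels nor the Methods describe saline and APAP mice as matched, so equal numbers would not by themselves define pairs. Without APAP replicate 1 or 3 only 1 APAP library is left, so no counts of genes passing are given for those settings. Of the 10 genes, 1 passed an adjusted p of 0.05, and the number was 2 with DESeq2 (Sqstm1 and Gabarapl1). It was 0 with size factors, 1 without WT1 and 0 without WT2 or WT3. With size factors the study's thresholds still gave 3 genes, 1 higher and 2 lower. At those thresholds the number was also 3 without WT1, WT2 or WT3. The directions were 1 higher and 2 lower in the main fit and without WT2 or WT3. Without WT1 they were 2 higher and 1 lower, so the 3 genes were not the same. For the wider list, 2 calls became 14 with DESeq2, 7 with the likelihood ratio test and 6 without a low-count filter. They became 4 with at least 10 counts in every library, and 4 with library size only (3 higher and 1 lower). Without WT1, WT2 or WT3 they became 1, 0 or 3. Its 17 genes at the study's thresholds became 8 to 17 with 1 library left out, the 8 being without APAP replicate 1. Among all genes, 993 calls (508 higher and 485 lower) became 2042 with DESeq2 and 1835 with the likelihood ratio test. They became 510, 165 or 922 without WT1, WT2 or WT3. With library size only they became 1339, of which 1042 were higher and 297 lower.

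Differences whose sign turned lay between −0.37 (Wipi1) and 0.19 (Tfe3) on the log2 scale in the main fit, but some were larger in an alternative. With library size only, the log2 fold changes were 0.0561 for Map1lc3a, 0.27 for Bnip3l, 0.0130 for Wipi1, 0.0887 for Ulk1 and 0.38 for Gabarapl2. Becn1 was at −0.0110 with DESeq2 and at −0.0122 with size factors. Gabarapl2 was at 0.0284 with upper-quartile factors and at 0.0042 with at least 10 counts in every library. With 1 library left out, values ranged from −0.12 to 0.15 for Becn1, −0.77 to 0.13 for Ulk1, −0.29 to 0.42 for Tfeb, −0.0842 to 0.41 for Tfe3 and −0.17 to 0.13 for Gabarapl2. Sqstm1, Map1lc3b, Gabarapl1 and Pink1 kept their direction in the 12 alternatives of the fit. The cause of these shifts was not tested. Shares of promoters with a motif were lower in the 250 bases before the start alone, such as 6.02% for CACGTG and 10.2% for TGACNNNGC. With 2 APAP libraries the intervals were wide, from −1.12 to 0.62 on the log2 scale for Ulk1 and from −0.64 to 0.87 for Tfeb.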

Other observations

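Other genes of the wider list passed the study's thresholds without passing the adjustment, and were picked here after their values were seen. Mtor, the growth kinase that restrains autophagy, was at 59.4 and 64.5 CPM after APAP, and 36.3, 35.0 and 43.9 CPM after saline (0.69 on the log2 scale, edgeR quasi-likelihood test, adjusted p = 0.0870). Prkaa2, a catalytic subunit of AMPK, was at 51.4 and 46.5 CPM in the APAP livers against 92.2, 89.2 and 68.6 CPM in the saline livers. Its log2 fold change was −0.77 (edgeR quasi-likelihood test, adjusted p = 0.0899). Prkaa1, from the same list, was at 0.18 on the log2 scale, and its groups overlapped. Tex264, another receptor for autophagy of the endoplasmic reticulum, was at 26.0 and 34.8 CPM after APAP, and 70.4, 52.7 and 59.3 CPM after saline (adjusted p = 0.0542). Among other receptor genes of the list, Rtn3 was at −0.13 and Fam134b (Retreg1) at −0.89 on the log2 scale, and their groups overlapped. Sec62 was at −0.47, and its groups did not. In Mtor, Prkaa2 and Tex264 the APAP and saline libraries did not overlap, as in 44.1% of all genes tested.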
